A study of Mus musculus with 12 samples.

Results

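Dexamethasone (Dex), a synthetic glucocorticoid, was given to mice that drank normal water, and the ileum was profiled by RNA sequencing 2 h later. The comparison held 6 of the 12 libraries of the series, chosen by their labels: 3 from mice on normal drinking water that were injected with Dex (water + Dex) and 3 from mice on normal drinking water that were injected with PBS (water + PBS). All were wild-type C57BL/6J mice aged 8 to 14 weeks that had drunk normal water for 7 days, and the study's methods give the purchased mice of this strain as female. The injection was 200 μg Dex, intraperitoneal, in PBS, or PBS only. The other 6 libraries came from mice that drank 25 mM ZnSO4 for the same 7 days, 3 then injected with Dex and 3 with PBS; they shared the model's estimate of spread and served as a second set of mice for the same contrast. Each library is 1 mouse and whole ileum, so fewer cells of a type and less RNA per cell cannot be told apart in any result below, and mice were assigned to groups without randomisation or blinding.

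Glucocorticoids cross the cell membrane and bind the glucocorticoid receptor (GR, gene Nr3c1), which leaves its chaperones, enters the nucleus and raises transcription where it binds glucocorticoid response elements, palindromes that take a receptor dimer. The same receptor lowers transcription of many inflammatory genes, in part by acting on NF-κB, AP-1 and interferon regulatory factors at their own sites. In the small intestine glucocorticoids are known for speeding sodium and water absorption, for epithelial maturation and for damping of mucosal inflammation.

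The 6 libraries held 10760132 to 11798057 reads assigned to genes and 22308 to 22848 genes with a read. Mitochondrial transcripts took 2.87 to 3.47% of reads, and no library stood apart in depth. Ileal identity was plain in the markers: Fabp6, the ileal bile acid binding protein, was at 59775, 62148 and 72351 normalised counts in the water + PBS mice and 66635, 85855 and 68366 in the water + Dex mice (0.19, adjusted p = 0.74). Of 54838 genes listed, 15938 had enough reads to be tested and these held 99.8% of all reads. Values below are normalised counts, that is reads divided by the library's effective size and set to a common size, and fold changes are on the log2 scale. A gene is called up or down where the Benjamini-Hochberg adjusted p of edgeR's quasi-likelihood test is below 0.05 and the log2 fold change is beyond 0.8 either way, the cut-offs used in the study. With 3 mice against 3, an exact permutation test of 1 gene cannot go below p = 0.1, so single genes were tested only in the model fitted across all genes. The labels describe the mice as biological replicates.

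Dex raised 444 genes and lowered 261, which are 2.79% and 1.64% of the 15938 tested. The median log2 fold change of all tested genes was -0.01. Over all tested genes the 3 Dex mice lay wholly above the 3 PBS mice in 15.2% and wholly below in 14.5%, and among the called genes the groups did not overlap in 443 of the 444 and in 259 of the 261. Rises were larger than falls: 112 of the 444 exceeded 2 on the log2 scale and 22 exceeded 4, against 33 and 4 of the 261. The genes called up took 2.13 to 2.21% of all reads in the water + PBS mice and 5.13 to 5.45% in the water + Dex mice, and those called down took 1.07 to 1.22% and 0.457 to 0.512%. Without any 1 of the 6 mice the number called up was 355 to 426 and the number called down 193 to 261, lowest in both cases without water + Dex mouse 3. Of the called genes, 309 of 444 and 142 of 261 were called in all 6 of these fits. Protein-coding genes made up 395 of the rises and 241 of the falls.

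**Figure D1:**
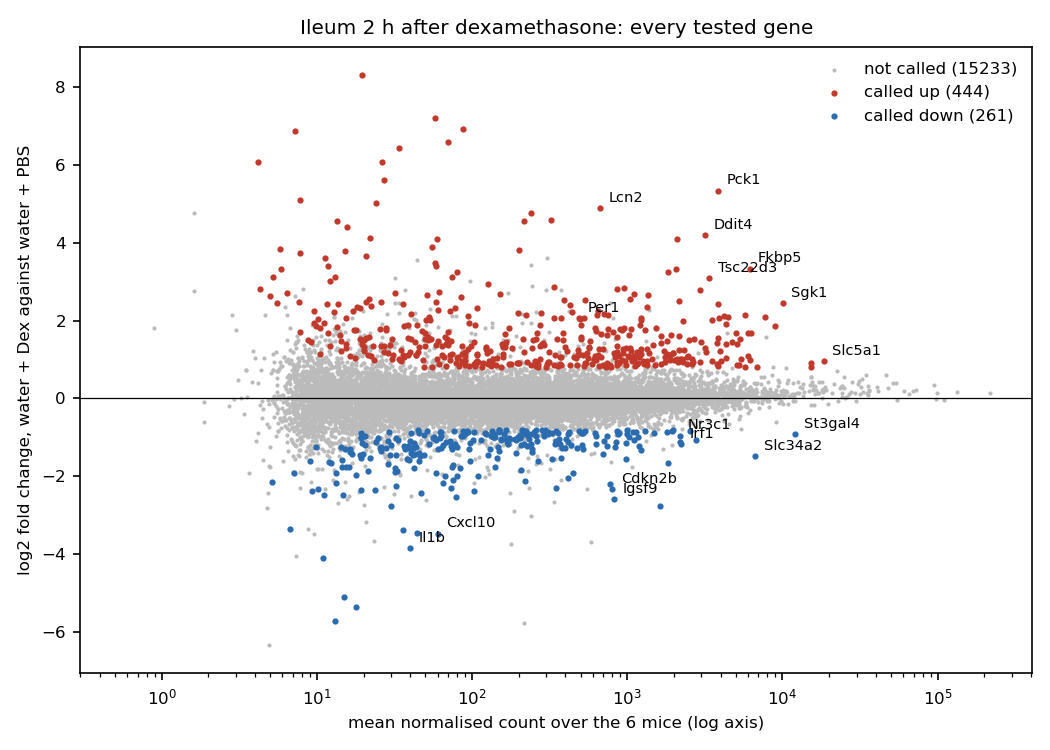
Each point is 1 of 15938 tested genes, placed by its mean normalised count over the 6 mice (log axis) and by its log2 fold change, water + Dex against water + PBS; red points are called up (444), blue points called down (261) and grey points not called. The most abundant rise and fall are Slc5a1 at 0.97 and St3gal4 at -0.92, while Pck1 lies at 5.34 and Lcn2 at 4.90.

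Most of the textbook targets of GR that were listed rose. Of 30 classical glucocorticoid-induced genes, all tested, 18 rose and 0 fell, and their median log2 fold change was 1.36. The list was chosen with earlier results of these data known, so its share is no independent result. Fkbp5, which encodes a co-chaperone that lowers the hormone affinity of GR (ENSMUSG00000024222, chr17:28399094-28517527 in GRCm38, minus strand), was at 1129, 969 and 1222 normalised counts in the water + PBS mice and 10754, 10423 and 12396 in the water + Dex mice, a 10.1-fold rise (log2 fold change 3.34 ± 0.13 (SE), adjusted p = 2.1e-07). Tsc22d3, which encodes the anti-inflammatory leucine zipper protein GILZ, was at 622, 903 and 593 normalised counts in the water + PBS mice and 5274, 6289.9 and 6553 in the water + Dex mice (log2 fold change 3.10 ± 0.17 (SE), adjusted p = 1.1e-06). Ddit4, an inhibitor of mTORC1, was at 263, 453 and 268 normalised counts in the water + PBS mice and 6240.1, 5986 and 5755 in the water + Dex mice and rose 18.3-fold (log2 fold change 4.19 ± 0.20 (SE), adjusted p = 5.2e-07). In these 3 genes the lowest Dex mouse stood at least several-fold above the highest PBS mouse, and the Dex mice were close to one another.

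Per1, a repressor of the circadian clock, was at 203, 183 and 179.6 normalised counts in the water + PBS mice and 779, 757 and 835 in the water + Dex mice (log2 fold change 2.07 ± 0.09 (SE), adjusted p = 4.7e-07). Sgk1, a kinase that raises sodium transport, was the most abundant member of the list, at 2734, 3343 and 3246 normalised counts in the water + PBS mice and 16814, 16861 and 17302 in the water + Dex mice (log2 fold change 2.45 ± 0.16 (SE), adjusted p = 3.7e-06). Neither gene's groups overlapped. Rasd1, a Ras-family gene first known as dexamethasone-induced, rose by 3.82 ± 0.39 (SE), Angptl4, an inhibitor of lipoprotein lipase, by 3.33 ± 0.48, Errfi1, an inhibitor of the EGF receptor, by 3.24 ± 0.16, Zbtb16, a zinc finger factor, by 2.86 ± 0.49, and Klf15 by 2.68 ± 0.29 on the log2 scale, all with adjusted p at or below 0.0029. The remaining called members were Pdk4, Sult1a1, Cdkn1a, Cdkn1c, Glul, Lpin1, Klf9 and Mertk, with log2 fold changes from 1.02 to 2.21. Pdk4 was uneven in the controls, at 339, 81.3 and 48.5 normalised counts in the water + PBS mice and 555, 1028 and 584 in the water + Dex mice, and the call was lost without water + PBS mouse 2 or 3 or water + Dex mouse 2 (log2 fold change 1.78 to 1.90, adjusted p 0.051 to 0.093), while without water + PBS mouse 1 the log2 fold change was 3.48.

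The 12 members that were not called spread from -0.41 (Cebpb) to 0.83 (Bcl6). Several of them are immediate responders in other tissues. Dusp1, a MAP kinase phosphatase, was at 319, 153 and 122 normalised counts in the water + PBS mice and 312, 359 and 322 in the water + Dex mice, with overlapping groups (log2 fold change 0.74 ± 0.30 (SE), adjusted p = 0.16). Nfkbia, the inhibitor of NF-κB, was at 1812, 1836 and 1066 normalised counts in the water + PBS mice and 2567, 2051 and 2607 in the water + Dex mice (log2 fold change 0.62 ± 0.23 (SE), adjusted p = 0.13). Tat, a hepatic target of GR, was at 411, 279.9 and 219 normalised counts in the water + PBS mice and 408, 342 and 633 in the water + Dex mice (log2 fold change 0.61 ± 0.28 (SE), adjusted p = 0.22). The metallothioneins Mt1 and Mt2 had log2 fold changes of 0.82 (adjusted p = 0.058) and 0.71 (adjusted p = 0.26). Water + PBS mouse 3 was the lowest control for Dusp1, Nfkbia, Mt1, Mt2, Tat and Cebpd, and Tat spread among the Dex mice as well. Over all 30 members the groups did not overlap in 22, and 24 had an unadjusted p below 0.05. Nfkbia and Mt1, though not called, were among those without overlap.

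**Figure D2:**
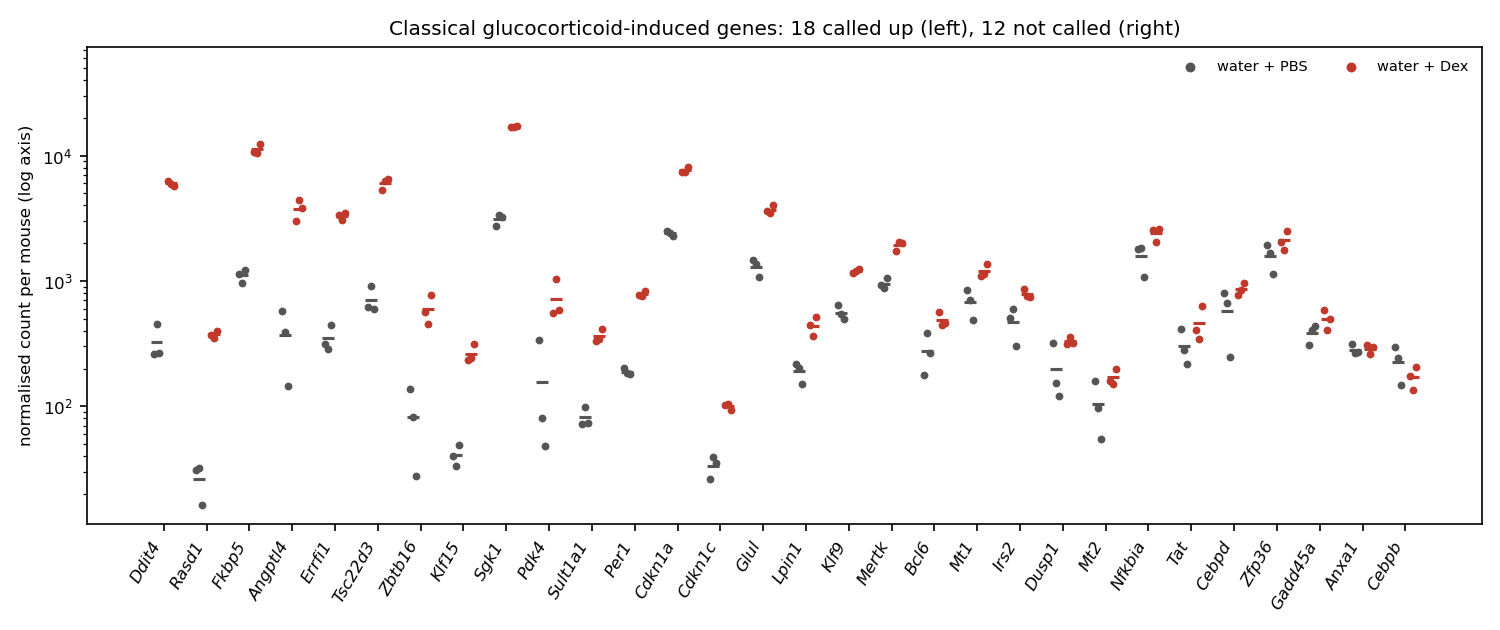
Normalised count in each mouse (log axis) for the 30 classical glucocorticoid-induced genes, grey for water + PBS and red for water + Dex, with a line at each group's mean; genes are in order of log2 fold change within the 18 called up and then the 12 not called. The left-hand genes separate completely, from Ddit4 at 263 to 453 against 5755 to 6240, while Dusp1, Mt2, Tat and Anxa1 overlap.

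Among the named genes, the RefSeq promoter windows (250 bases before to 50 after each annotated start, build GRCm38.p6) of 4 held the full palindrome of the receptor's response element, that is GNACA and TGTNC with any 3 bases between them, searched on both strands. That pattern occurs in 0.475% of all 32851 promoters in the table. Because only 309 of the 444 genes called up (69.6%) and 185 of the 261 called down (70.9%) had a promoter there, below the 80% needed for such a comparison, no share over the called genes is given. The 4 windows are shown because they put the receptor's own sequence beside genes whose response is described here; each reads 5′ to 3′ on the gene's strand with the palindrome in capitals. They are from Sgk1 (chr10:21993640-21993939, plus strand), Txnip (chr3:96557707-96558006, plus strand), Map3k6 (chr4:133240568-133240867, plus strand) and Mt1 (chr8:94178839-94179138, plus strand).
Sgk1: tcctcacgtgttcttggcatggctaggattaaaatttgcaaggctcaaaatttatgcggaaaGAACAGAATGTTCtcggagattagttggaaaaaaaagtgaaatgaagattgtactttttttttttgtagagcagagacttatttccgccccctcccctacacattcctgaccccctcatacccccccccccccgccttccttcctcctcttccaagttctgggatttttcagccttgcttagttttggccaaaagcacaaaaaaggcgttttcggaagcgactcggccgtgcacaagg
Txnip: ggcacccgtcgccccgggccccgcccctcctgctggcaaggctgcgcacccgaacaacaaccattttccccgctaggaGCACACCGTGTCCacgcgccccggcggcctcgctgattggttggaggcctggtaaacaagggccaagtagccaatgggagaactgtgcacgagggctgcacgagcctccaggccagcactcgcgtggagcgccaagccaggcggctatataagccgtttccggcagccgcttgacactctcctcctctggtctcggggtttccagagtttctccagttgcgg
Map3k6: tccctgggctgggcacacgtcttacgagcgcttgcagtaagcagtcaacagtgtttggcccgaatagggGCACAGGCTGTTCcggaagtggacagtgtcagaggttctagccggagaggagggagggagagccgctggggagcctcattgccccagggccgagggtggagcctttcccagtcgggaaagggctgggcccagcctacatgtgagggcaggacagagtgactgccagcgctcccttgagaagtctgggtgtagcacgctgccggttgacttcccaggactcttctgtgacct
Mt1: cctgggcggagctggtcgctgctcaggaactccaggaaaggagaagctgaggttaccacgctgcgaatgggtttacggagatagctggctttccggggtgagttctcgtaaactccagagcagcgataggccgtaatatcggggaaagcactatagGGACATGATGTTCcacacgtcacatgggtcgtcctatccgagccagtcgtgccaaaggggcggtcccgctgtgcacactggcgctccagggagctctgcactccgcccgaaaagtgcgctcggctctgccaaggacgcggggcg

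The first base of the palindrome lies 188 bases before the start in Sgk1, 172 in Txnip, 181 in Map3k6 and 94 in Mt1. For Sgk1 the window belongs to 1 of several annotated starts, and the counts cannot say which start was used. Txnip, an arrestin that curbs glucose uptake, rose by 1.85 ± 0.14 (SE, adjusted p = 1.1e-05) and Map3k6, a stress kinase, by 1.58 ± 0.18 (SE, adjusted p = 0.00017). Mt1, whose palindrome matches as fully, was at 850.2, 700.3 and 490.3 normalised counts in the water + PBS mice and 1093, 1143 and 1376 in the water + Dex mice. Its groups did not overlap and its log2 fold change of 0.82 passed the size cut-off. Mt1 missed only the cut-off on adjusted p and so was not called here, while the study lists it as raised by Dex. A match is a description of these letters only.

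The receptor's own transcript fell. Nr3c1 was at 3037, 2757 and 2825 normalised counts in the water + PBS mice and 1624, 1407 and 1413 in the water + Dex mice, a 1.94-fold fall (log2 fold change -0.96 ± 0.08 (SE), adjusted p = 1.6e-05), with no overlap. Of 22 tested genes for the receptor, its chaperones and the enzymes that make or inactivate steroids, 1 rose and 2 fell (median -0.10). Hsd11b2, which inactivates corticosterone, was the rise, at 352, 227 and 328 normalised counts in the water + PBS mice and 836, 818 and 874 in the water + Dex mice (log2 fold change 1.48 ± 0.20 (SE), adjusted p = 0.00059). Akr1c14, a hydroxysteroid dehydrogenase, the other fall, was at 402, 657 and 588 normalised counts in the water + PBS mice and 337, 310.0 and 253 in the water + Dex mice (log2 fold change -0.87 ± 0.18 (SE), adjusted p = 0.008). The 3 mice of each group stayed apart from the other group in both genes. For Akr1c14 the call was lost without water + PBS mouse 2 or water + Dex mouse 3 (log2 fold change -0.77 to -0.72, adjusted p 0.034 to 0.041).

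Some of the largest fold changes belonged to genes that were nearly silent in the controls. Cldn14, a claudin of tight junctions, had no read in any PBS mouse and 31.2, 46.4 and 40.0 normalised counts with Dex, at least 13.4-fold higher when the controls are set at 3 reads per library (adjusted p = 9.2e-05). It was the only riser among 21 tested tight junction genes, of which Cldn5, the endothelial claudin, fell (log2 fold change -1.22 ± 0.26 (SE), adjusted p = 0.011). Acot5, a peroxisomal acyl-CoA thioesterase, had 2 reads over the 3 PBS mice and 316 over the 3 Dex mice, a ratio of 177-fold (95% interval 48.6 to 1467). Gsc, a homeobox gene of the embryo, had 2 and 183 reads, a ratio of 102-fold (95% interval 28 to 852), and Kcnv2, a potassium channel subunit, 2 and 142, a ratio of 79.5-fold (95% interval 21.6 to 663). These intervals cover counting error only. Both control reads of Acot5 and of Kcnv2 were in water + PBS mouse 3, and the fitted log2 fold changes went from 7.22 to 9.84 and from 6.07 to 8.69 without it, values set by the prior count once the controls hold no read. Aire, the transcription factor that drives self-antigen display in the thymus, was at 0, 4.01 and 0 normalised counts in the water + PBS mice and 195, 82.1 and 246 in the water + Dex mice (adjusted p = 0.00021), with every Dex mouse well above every control. All its control reads were in water + PBS mouse 2, without which the log2 fold change went from 6.93 to 10.45. BB123696, Asb11, Gm13857, Gm19439 and Gm11827 showed the same pattern, each with at most 3 reads in any PBS mouse. Of these, Asb11 went from 5.61 to 6.43 and Gm19439 from 4.56 to 5.39 on the log2 scale without water + PBS mouse 3, and Gm13857 from 5.03 to 6.27 without water + PBS mouse 2.

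Among the largest rises with more control reads than the nearly silent genes, Pck1 rose most. Apart from Pck1, the genes given here were still low in the controls, at 12 to 55.4 normalised counts. Pck1 encodes the cytosolic enzyme that commits carbon to gluconeogenesis (ENSMUSG00000027513, chr2:173153048-173159273 in GRCm38, plus strand), and it was at 237, 214 and 107 normalised counts in the water + PBS mice and 5895, 9463 and 7238 in the water + Dex mice, a 40.5-fold rise (log2 fold change 5.34 ± 0.35 (SE), adjusted p = 3.7e-06). Lcn2, a siderophore-binding protein of mucosal defence, was at 55.4, 49.2 and 25.7 normalised counts in the water + PBS mice and 1171, 1375 and 1335 in the water + Dex mice (log2 fold change 4.90 ± 0.24 (SE), adjusted p = 5.2e-07). Hif3a, a member of the hypoxia-inducible factor family, was at 32.1, 20.1 and 25.7 normalised counts in the water + PBS mice and 582, 593 and 695 in the water + Dex mice (log2 fold change 4.58 ± 0.32 (SE), adjusted p = 5.9e-06). Fa2h, which makes hydroxylated sphingolipids, was at 19.5, 12 and 20.9 normalised counts in the water + PBS mice and 373, 485 and 379 in the water + Dex mice (log2 fold change 4.55 ± 0.44 (SE), adjusted p = 5.5e-05). Myot, a sarcomere protein of muscle, was at 18.5, 13 and 19 normalised counts in the water + PBS mice and 440.4, 451 and 499 in the water + Dex mice (log2 fold change 4.77 ± 0.35 (SE), adjusted p = 7.6e-06). None of the 5 overlapped between groups, but the largest rises were picked only among genes without overlap, so this is no separate result. Beside Myot, 0 of 10 smooth muscle markers were called (0 at an unadjusted p below 0.05), and their summed level was 22793 to 29843 normalised counts with PBS and 28180.4 to 30013 with Dex.

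The 10 most abundant genes called up included Slc5a1, Serinc3, Slc10a2, Sgk1, Txnip, Ivns1abp, Slc6a6, Abhd2 and Fkbp5. Slc5a1, the sodium-glucose cotransporter of the brush border, was the highest of these, at 12744, 13052 and 11921 normalised counts in the water + PBS mice and 22929, 24425 and 26289 in the water + Dex mice (log2 fold change 0.97 ± 0.21 (SE), adjusted p = 0.013), and the call was lost without water + PBS mouse 3 or water + Dex mouse 3 (log2 fold change 0.91 to 0.93, adjusted p 0.053 to 0.06). Slc10a2, the apical sodium-dependent bile acid transporter of the ileum, was at 10972, 10263 and 10698 normalised counts in the water + PBS mice and 20028, 19946 and 20285 in the water + Dex mice (log2 fold change 0.92 ± 0.23 (SE), adjusted p = 0.024), where the groups did not overlap but the call was lost without any 1 of the 6 mice (log2 fold change 0.89 to 0.94, adjusted p 0.065 to 0.082). Slc6a6, the taurine transporter, was at 3011, 2472 and 3418 normalised counts in the water + PBS mice and 8679.6, 9794 and 10087 in the water + Dex mice (log2 fold change 1.68 ± 0.14 (SE), adjusted p = 2.1e-05), and its lowest Dex mouse stood far above its highest control. Serinc3 and Ivns1abp were near the size cut-off, both with a log2 fold change of 0.82. For Serinc3 the call was lost without water + PBS mouse 1 or water + Dex mouse 3 (log2 fold change 0.78 to 0.79, adjusted p 0.0034 to 0.0041). For Ivns1abp the fits that lost the call included that without water + PBS mouse 2 (log2 fold change 0.76, adjusted p 0.0029).

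Transporters of sodium, chloride and water rose beside Sgk1. Of 26 tested genes of sodium, chloride and potassium transport, Sgk1 included, 5 rose and 0 fell (median 0.28). Slc9a3, the brush border sodium-hydrogen exchanger NHE3, was at 734, 458 and 269.9 normalised counts in the water + PBS mice and 1912, 2152 and 1875 in the water + Dex mice (log2 fold change 2.02 ± 0.32 (SE), adjusted p = 0.0019). Aqp1, a water channel, was at 1663, 1957 and 2248 normalised counts in the water + PBS mice and 5389, 5696 and 6141 in the water + Dex mice (log2 fold change 1.55 ± 0.16 (SE), adjusted p = 7.6e-05). Slc12a2, the basolateral sodium-potassium-chloride cotransporter, was at 4276, 2821 and 3734 normalised counts in the water + PBS mice and 6581, 6156 and 6943 in the water + Dex mice (log2 fold change 0.86 ± 0.13 (SE), adjusted p = 0.0014). None of these transporters had overlapping groups. For Slc12a2 the call was lost without water + PBS mouse 2 (log2 fold change 0.71, adjusted p 0.002). Slc26a3, the chloride-bicarbonate exchanger, had a log2 fold change of 0.94 (adjusted p = 0.022), and the call was lost without water + PBS mouse 1 or 2 or water + Dex mouse 2 or 3 (log2 fold change 0.82 to 0.94, adjusted p 0.069 to 0.085).

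Brush border hydrolases and nutrient transporters went both ways, with 2 of 36 up and 3 down (median 0.20). Slc52a3, a riboflavin transporter, rose beside Slc5a1 (log2 fold change 0.97 ± 0.24 (SE), adjusted p = 0.026), and the call was lost without any 1 of the 6 mice (log2 fold change 0.89 to 1.03, adjusted p 0.06 to 0.1). Slc34a2, the apical sodium-phosphate cotransporter, was at 9599.6, 10971 and 8986 normalised counts in the water + PBS mice and 2919.9, 4509 and 3217 in the water + Dex mice (log2 fold change -1.47 ± 0.31 (SE), adjusted p = 0.011), and the call was lost without water + Dex mouse 1 or 3 (log2 fold change -1.41 to -1.35, adjusted p 0.053 to 0.057). Slc16a1, the monocarboxylate transporter MCT1, was at 1256, 1018 and 1173 normalised counts in the water + PBS mice and 613, 653 and 589 in the water + Dex mice (log2 fold change -0.89 ± 0.11 (SE), adjusted p = 0.00028). Its groups were well separated. The fructose transporter Slc2a5 was at 189.7, 288 and 156 normalised counts in the water + PBS mice and 119, 118 and 98.3 in the water + Dex mice (log2 fold change -0.92 ± 0.24 (SE), adjusted p = 0.032), where the call was lost without water + PBS mouse 1 or 2 or water + Dex mouse 1 or 2 or 3 (log2 fold change -0.99 to -0.63, adjusted p 0.055 to 0.13). The most abundant fall of all was St3gal4, a sialyltransferase, at 17203, 14974 and 15244 normalised counts in the water + PBS mice and 8842, 8700.4 and 7523 in the water + Dex mice (log2 fold change -0.92 ± 0.24 (SE), adjusted p = 0.029), where the groups were far apart but the call was lost without any 1 of the 6 mice (log2 fold change -0.96 to -0.86, adjusted p 0.058 to 0.12). Cdx2, the homeobox factor of intestinal identity, was at 2768, 2456 and 2341 normalised counts in the water + PBS mice and 1393, 1469 and 1417 in the water + Dex mice (log2 fold change -0.82 ± 0.09 (SE), adjusted p = 0.00012), and the call was lost without water + PBS mouse 1 (log2 fold change -0.75, adjusted p 0.00078). Regional markers of the small intestine are given beside these genes. Of 7 proximal markers 5 were tested, 0 rose and 1, the iron exporter Slc40a1, was called down (3 at an unadjusted p below 0.05, median -0.55), and their summed level was 1931 to 2578 normalised counts with PBS and 1194 to 1307 with Dex. For Slc40a1 the call was lost without water + PBS mouse 1 (log2 fold change -0.72, adjusted p 0.0035). Of 6 ileal markers 1 (Slc10a2) rose and 0 fell (median 0.33), with sums of 96407 to 113579 and 123815 to 147385. Neither set of sums overlapped between the groups, and the part of these markers in the transporter results was not tested. None of the 12 enterocyte markers was called by edgeR or DESeq2 (median 0.26, 0 at an unadjusted p below 0.05). Anpep, an abundant one, was at 82466, 81662 and 85178 normalised counts in the water + PBS mice and 103355, 107907 and 108122 in the water + Dex mice. The summed level of the 12 enterocyte markers was 234816 to 267545 normalised counts with PBS and 295850 to 329231 with Dex. These sums did not overlap either, and the part of enterocyte markers in the transporter results was not tested.

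**Figure D3:**
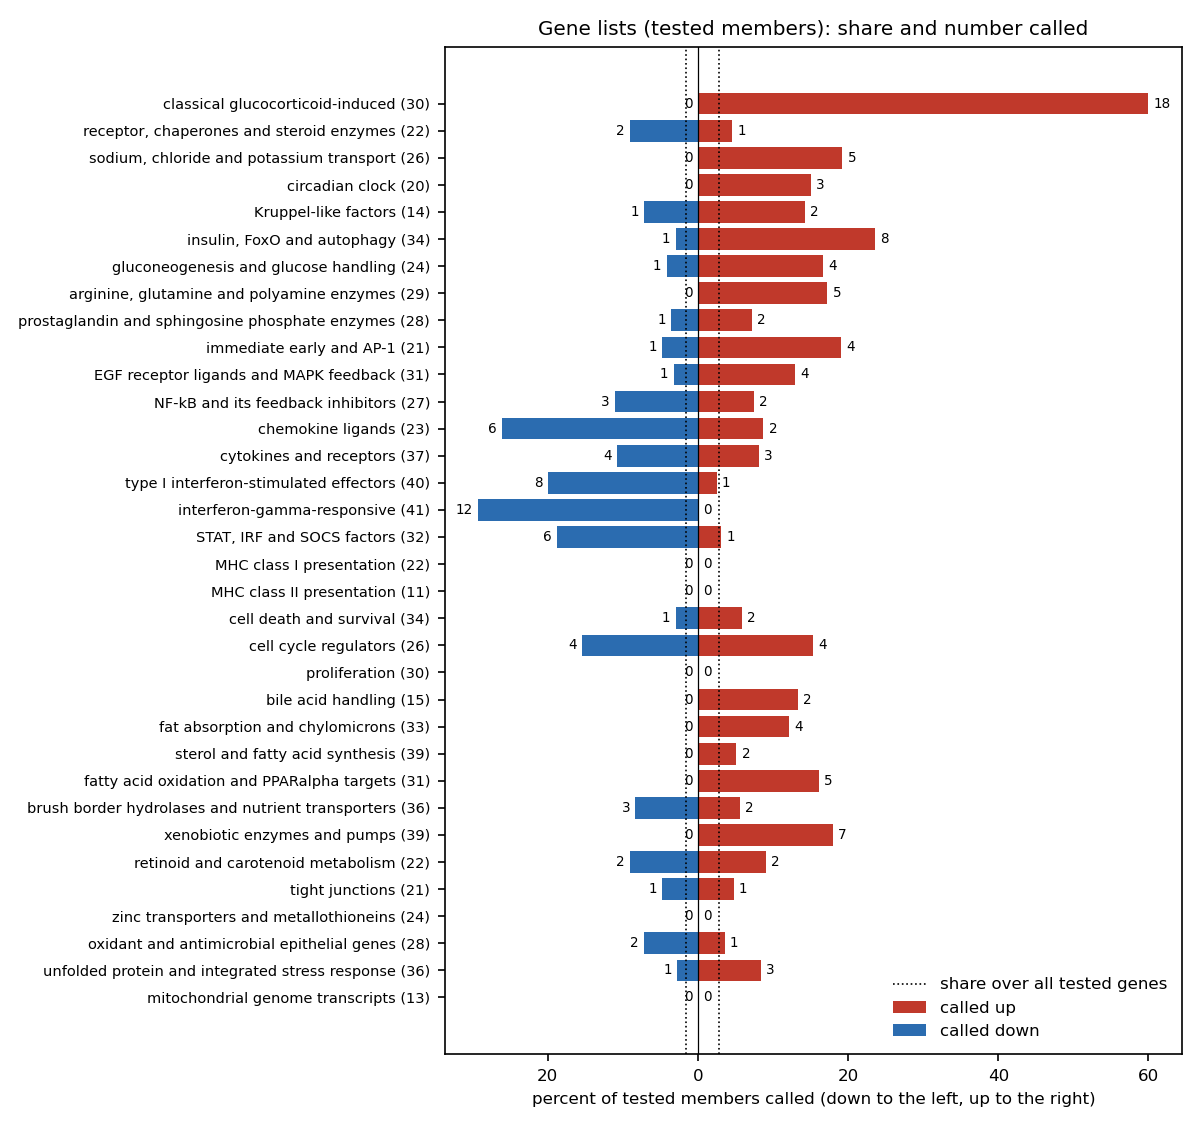
Share of the tested members of each of 34 gene lists called up (red, to the right) or down (blue, to the left), with the number of genes at the end of each bar and the number tested in brackets; dotted lines mark the shares over all tested genes, 2.79% up and 1.64% down. Of the classical targets 18 of 30 are up with none down, and of the interferon-gamma list 12 of 41 are down with none up. Some genes count in several lists, and the lists were chosen with earlier results of these data known.

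Genes that restrain growth signalling and remodel fuel use were among the rises. Of 34 genes of insulin, FoxO and autophagy signalling 1, Phlpp2, fell and 8 rose (median 0.25). Besides Ddit4 and Txnip these included Depp1 (log2 fold change 3.26 ± 0.36 (SE), adjusted p = 0.00015) and Sesn1, an activator of AMPK signalling (log2 fold change 2.07 ± 0.15 (SE), adjusted p = 6.3e-06), both FoxO targets, Retreg1, a receptor for autophagy of the endoplasmic reticulum (log2 fold change 1.79 ± 0.21 (SE), adjusted p = 0.00022), and Pik3r1, the regulatory subunit of PI3-kinase (log2 fold change 1.03 ± 0.09 (SE), adjusted p = 3.5e-05). Pik3ip1, an inhibitor of PI3-kinase, was called with overlapping groups at 66.2, 96.3 and 81.7 normalised counts in the water + PBS mice and 209.6, 162 and 91.8 in the water + Dex mice, and the call was lost without water + PBS mouse 1 or 3 or water + Dex mouse 1 or 2 (log2 fold change 0.64 to 0.93, adjusted p 0.1 to 0.15). Of 24 genes of gluconeogenesis and glucose handling 4 rose and 1 fell (median 0.41). Pfkfb3, which sets the level of the glycolytic activator fructose 2,6-bisphosphate, was at 675, 1101 and 1026 normalised counts in the water + PBS mice and 3157, 2408 and 3064 in the water + Dex mice (log2 fold change 1.62 ± 0.32 (SE), adjusted p = 0.0073). Ppargc1a, a coactivator of mitochondrial biogenesis, was at 233, 219.7 and 197 normalised counts in the water + PBS mice and 415, 356 and 469 in the water + Dex mice (log2 fold change 0.93 ± 0.13 (SE), adjusted p = 0.001). Unlike those of Pik3ip1, the groups of Pfkfb3 and Ppargc1a did not overlap.

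Nitrogen metabolism showed 5 rises and no fall among 29 genes for arginine, glutamine and polyamines (median 0.17). Glul, glutamine synthetase, was at 1466, 1366 and 1067 normalised counts in the water + PBS mice and 3620.1, 3483 and 4013 in the water + Dex mice (log2 fold change 1.51 ± 0.14 (SE), adjusted p = 4.8e-05). Arg2, the mitochondrial arginase, was at 329.8, 278 and 481 normalised counts in the water + PBS mice and 932, 1363 and 1052 in the water + Dex mice (log2 fold change 1.62 ± 0.26 (SE), adjusted p = 0.0019). Every Dex mouse was above every control in both. Prodh, Got1 and Slc7a2, which open proline breakdown, make aspartate and carry cationic amino acids, rose by 1.28, 1.26 and 1.35 on the log2 scale.

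Some genes of lipid metabolism rose and none was called down. The rises numbered 4 of 33 for fat absorption and chylomicrons (median 0.39), 5 of 31 for fatty acid oxidation and PPARα targets (median 0.05), 2 of 39 for sterol and fatty acid synthesis (median 0.33) and 2 of 15 for bile acid handling (median 0.08). Angptl4 counts in both the fat absorption and the oxidation list, and over all tested genes 2.79% were called up. Cyp27a1, the mitochondrial sterol 27-hydroxylase, was at 164, 217 and 264 normalised counts in the water + PBS mice and 1377, 1394 and 1761 in the water + Dex mice (log2 fold change 2.81 ± 0.18 (SE), adjusted p = 2.5e-06). Ppara, the receptor of the oxidation list, was at 335, 212 and 277 normalised counts in the water + PBS mice and 929.8, 933 and 1023 in the water + Dex mice (log2 fold change 1.81 ± 0.16 (SE), adjusted p = 2.8e-05). Apobec1, which edits apolipoprotein B mRNA, was at 439.7, 536 and 516 normalised counts in the water + PBS mice and 1516, 1458 and 1657 in the water + Dex mice (log2 fold change 1.63 ± 0.17 (SE), adjusted p = 0.00011). The groups did not overlap in any of these 3. Beside these genes, of the adipocyte markers 0 of 6 were called (2 at an unadjusted p below 0.05), all 6 had positive log2 fold changes (median 1.49), and their summed level was 462 to 2024 normalised counts with PBS and 1666 to 4401 with Dex. Their part in the lipid results was not tested.

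Several detoxifying enzymes rose. Of 39 tested xenobiotic enzymes and pumps 7 rose and 0 fell (median 0.25). Cyp2b10, the classical target of the receptor CAR, was at 5.84, 4.01 and 10.5 normalised counts in the water + PBS mice and 108, 99.4 and 102 in the water + Dex mice (log2 fold change 3.90 ± 0.62 (SE), adjusted p = 0.002). The sulfotransferases Sult1a1 and Sult1d1 were at 72, 99.3 and 74.1 against 331, 343 and 416 and 2886, 2345 and 3062 against 7856, 8113 and 7828 normalised counts, PBS against Dex (log2 fold change 1.52 ± 0.17 (SE), adjusted p = 0.00019 for Sult1d1). Por, the electron donor of microsomal cytochromes P450, rose by 1.26 ± 0.20 (SE, adjusted p = 0.0017). In retinoid metabolism 2 of 22 genes rose and 2 fell: Bco1, which cleaves beta-carotene to retinal, was at 95.3, 105 and 98.8 normalised counts in the water + PBS mice and 459, 405 and 512 in the water + Dex mice (log2 fold change 2.20 ± 0.27 (SE), adjusted p = 0.00029), and no Dex value of Bco1 came near the controls. The retinoic acid receptors Rara and Rarg fell by 0.85 and 1.22 on the log2 scale (adjusted p = 0.00058 and 0.00035).

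Clock, stress and cell cycle genes changed in small numbers. Of 20 clock genes 3 rose and 0 fell by edgeR, while DESeq2 called 1 fall (median 0.03): Per1, above, the repressor Cry2, at 153, 164 and 117 normalised counts in the water + PBS mice and 498, 667 and 649 in the water + Dex mice (log2 fold change 2.07 ± 0.24 (SE), adjusted p = 0.00022), and Nfil3 (log2 fold change 0.87 ± 0.19 (SE), adjusted p = 0.013), for which the call was lost without water + PBS mouse 3 or water + Dex mouse 3 (log2 fold change 0.63 to 0.82, adjusted p 0.0039 to 0.06). Of 26 cell cycle regulators 4 rose and 4 fell. The risers included the kinase inhibitors Cdkn1a, at 2487, 2426 and 2272 normalised counts in the water + PBS mice and 7359.5, 7391 and 8138 in the water + Dex mice (log2 fold change 1.67 ± 0.15 (SE), adjusted p = 2.8e-05), and Cdkn1c (log2 fold change 1.58 ± 0.21 (SE), adjusted p = 0.00052). The fallers included a kinase inhibitor of another family, Cdkn2b, at 1319, 1289 and 1402 normalised counts in the water + PBS mice and 261, 288 and 246 in the water + Dex mice (log2 fold change -2.33 ± 0.11 (SE), adjusted p = 4.7e-07), and the S phase factors E2f2 (log2 fold change -1.30 ± 0.15 (SE), adjusted p = 0.00016) and E2f3 (log2 fold change -1.20 ± 0.17 (SE), adjusted p = 0.001). None of 30 proliferation genes was called by edgeR or DESeq2 (median -0.19, 7 at an unadjusted p below 0.05), and Mki67 was at 2573, 2353 and 2116 normalised counts in the water + PBS mice and 2265, 2417 and 2115 in the water + Dex mice. Herpud1, of endoplasmic reticulum protein disposal, was at 1495, 1581 and 1658 normalised counts in the water + PBS mice and 6507, 7158 and 6988 in the water + Dex mice (log2 fold change 2.12 ± 0.10 (SE), adjusted p = 5.2e-07) and was 1 of 3 rises among 36 genes of the unfolded protein and integrated stress responses. Chac1, which degrades glutathione, was the fall in that list (log2 fold change -1.78 ± 0.36 (SE), adjusted p = 0.0084). Pmaip1, the pro-death BCL2 family member NOXA, was at 651, 667 and 605 normalised counts in the water + PBS mice and 3114, 3700.1 and 4161 in the water + Dex mice (log2 fold change 2.51 ± 0.30 (SE), adjusted p = 0.00028). It was 1 of 2 rises, with 1 fall, among 34 tested genes of cell death and survival.

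Signalling genes of the epithelium changed singly. Hpgd, which inactivates prostaglandins, was at 1518, 1630.5 and 1926 normalised counts in the water + PBS mice and 6864, 7119 and 7634 in the water + Dex mice (log2 fold change 2.09 ± 0.17 (SE), adjusted p = 1.7e-05), and was 1 of 2 rises, with 1 fall, among 28 genes of prostaglandins and sphingosine phosphate. The fall was Ptges, a prostaglandin E synthase, at 97.3, 132 and 115 normalised counts in the water + PBS mice and 43.5, 71.3 and 61.6 in the water + Dex mice (log2 fold change -0.96 ± 0.21 (SE), adjusted p = 0.013), where the call was lost without water + PBS mouse 2 or water + Dex mouse 1 (log2 fold change -0.85 to -0.79, adjusted p 0.05). Of 31 EGF receptor ligands and MAPK feedback genes 4 rose and 1 fell: the ligand Tgfa was at 407, 317 and 426 normalised counts in the water + PBS mice and 1124, 1275 and 1332 in the water + Dex mice (log2 fold change 1.70 ± 0.16 (SE), adjusted p = 4.3e-05), and the phosphatase Dusp5 fell by 0.85 ± 0.12 (SE, adjusted p = 0.001), where the call was lost without water + Dex mouse 1 (log2 fold change -0.79, adjusted p 0.0067). Of 21 immediate early genes 4 rose and 1 fell: Btg1 and Btg2, which slow proliferation, rose by 1.19 and 0.98 on the log2 scale, and the AP-1 subunit Junb was at 1576, 1564 and 901 normalised counts in the water + PBS mice and 545, 619.9 and 670.0 in the water + Dex mice (log2 fold change -1.14 ± 0.26 (SE), adjusted p = 0.017), where the call was lost without water + PBS mouse 1 or 2 or water + Dex mouse 1 or 2 or 3 (log2 fold change -1.22 to -1.01, adjusted p 0.053 to 0.072). Of 14 Krüppel-like factors Klf15 and Klf9 rose and Klf10, a TGF-beta-induced member, fell, at 522, 407 and 490.3 normalised counts in the water + PBS mice and 249, 225 and 186 in the water + Dex mice (log2 fold change -1.11 ± 0.12 (SE), adjusted p = 0.00015). In Hpgd, Ptges, Tgfa, Junb and Klf10 alike, the Dex and PBS mice did not overlap. The maturation factors of the dual oxidases, Duoxa1 and Duoxa2, were called down with log2 fold changes of -1.09 and -0.91, and both calls were lost without any 1 of the 6 mice (adjusted p 0.082 to 0.15 for Duoxa1 and 0.064 to 0.12 for Duoxa2). None of 24 zinc transporters and metallothioneins (7 at an unadjusted p below 0.05, 1 up by DESeq2) and none of 13 mitochondrial transcripts (6 at an unadjusted p below 0.05, 0 by DESeq2) was called.

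Inflammatory mediators made up the deepest falls. Of 23 tested chemokine ligands 6 fell and 2 rose (median -0.32). Cxcl10, an interferon-induced chemokine for T cells (ENSMUSG00000034855, chr5:92346638-92348889 in GRCm38, minus strand), was at 149, 119 and 62.7 normalised counts in the water + PBS mice and 11.1, 9.72 and 8.64 in the water + Dex mice, a 11.1-fold fall (log2 fold change -3.47 ± 0.35 (SE), adjusted p = 7.0e-05). Others had at most 3 reads in any Dex mouse. The neutrophil chemokine Cxcl1 had 78 reads over the PBS mice and 1 over the Dex mice, lower by a ratio of 69.7-fold (95% interval 12.1 to 2787) (adjusted p = 0.02), and the monocyte chemokine Ccl2 106 and 2, lower by a ratio of 47.3-fold (95% interval 12.8 to 396) (adjusted p = 0.01). Cxcl5 had 64 and 3, a ratio of 19.1-fold (95% interval 6.23 to 94.8) (adjusted p = 0.011). In these genes water + PBS mouse 2 was the highest control. Without it the log2 fold change of Ccl2 went from -5.36 to -4.68, and without water + Dex mouse 3, which held all Dex reads of Cxcl5, that of Cxcl5 went from -4.11 to -7.40. For Cxcl1 the call was lost without water + PBS mouse 2 or water + Dex mouse 1 or 2 or 3 (log2 fold change -7.69 to -4.99, adjusted p 0.063 to 0.078). Cx3cl1, the membrane-bound chemokine fractalkine, was at 1369, 1376 and 1157 normalised counts in the water + PBS mice and 740.3, 667 and 667 in the water + Dex mice (log2 fold change -0.91 ± 0.13 (SE), adjusted p = 0.00078). The groups of Cxcl10 and Cx3cl1 were apart in every mouse, which the rule for the largest falls required of Cxcl10. The rises were Ccl28, a mucosal chemokine, at 1575, 1136 and 1436 normalised counts in the water + PBS mice and 3449.5, 2834 and 3536 in the water + Dex mice (log2 fold change 1.24 ± 0.13 (SE), adjusted p = 9.6e-05), and Ccl17, at 3.89, 11 and 8.55 normalised counts in the water + PBS mice and 22.3, 33.5 and 24.9 in the water + Dex mice, for which the call was lost without water + PBS mouse 1 or 3 or water + Dex mouse 2 or 3 (log2 fold change 1.45 to 1.84, adjusted p 0.055 to 0.089).

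Of 37 cytokines and receptors 4 fell and 3 rose. Il1b was at 98.3, 81.3 and 45.6 normalised counts in the water + PBS mice and 5.57, 7.56 and 2.16 in the water + Dex mice, a 14.4-fold fall (log2 fold change -3.85 ± 0.43 (SE), adjusted p = 0.00016). Tnf was at 53.5, 44.1 and 20.9 normalised counts in the water + PBS mice and 7.8, 3.24 and 11.9 in the water + Dex mice (log2 fold change -2.35 ± 0.61 (SE), adjusted p = 0.032), where the call was lost without water + PBS mouse 1 or 2 or water + Dex mouse 1 or 2 or 3 (log2 fold change -2.83 to -2.001, adjusted p 0.055 to 0.12). Tnfsf10, the death ligand TRAIL, was at 1068, 1099.7 and 887 normalised counts in the water + PBS mice and 357, 446 and 325 in the water + Dex mice (log2 fold change -1.44 ± 0.14 (SE), adjusted p = 5.5e-05). Ifnlr1, the receptor subunit for type III interferons, was at 268, 248 and 289.8 normalised counts in the water + PBS mice and 137, 144 and 137 in the water + Dex mice (log2 fold change -0.95 ± 0.19 (SE), adjusted p = 0.0071). In Il1b, Tnf, Tnfsf10 and Ifnlr1 each Dex mouse was below each control, which the rule for the largest falls required of Il1b and Tnf. The rises were Il15ra (log2 fold change 1.68 ± 0.13 (SE), adjusted p = 9.2e-06), Il6ra (log2 fold change 0.86 ± 0.14 (SE), adjusted p = 0.0026) and the anti-inflammatory Il10, at 4.86, 6.02 and 0.95 normalised counts in the water + PBS mice and 15.6, 19.4 and 14 in the water + Dex mice, where the call was lost without water + Dex mouse 2 (log2 fold change 1.88, adjusted p 0.07). For Il6ra the call was lost without water + PBS mouse 1 or water + Dex mouse 3 (log2 fold change 0.72 to 0.80, adjusted p 0.0075 to 0.014). Among 27 genes of NF-κB and its inhibitors, Tsc22d3 and Tnip1, an inhibitor of NF-κB signalling (log2 fold change 1.06 ± 0.15 (SE), adjusted p = 0.001), rose, and Bcl3 (log2 fold change -2.31 ± 0.22 (SE), adjusted p = 5.6e-05), Icam1 (log2 fold change -1.76 ± 0.40 (SE), adjusted p = 0.015) and Zc3h12a, which degrades cytokine mRNAs (log2 fold change -0.98 ± 0.18 (SE), adjusted p = 0.0038), fell. For Icam1 the call was lost without water + PBS mouse 2 or water + Dex mouse 2 or 3 (log2 fold change -1.74 to -1.28, adjusted p 0.054 to 0.067). Acod1, which makes itaconate in activated macrophages, had 88 reads over the PBS mice and 2 over the Dex mice (adjusted p = 0.029), and the call was lost without water + PBS mouse 2 or water + Dex mouse 1 or 2 or 3 (log2 fold change -5.44 to -3.77, adjusted p 0.092 to 0.1). Of the 12 macrophage and dendritic cell markers 1 rose, and they summed to 5217 to 9369 normalised counts with PBS and 5795 to 7258 with Dex. Of 7 neutrophil markers 3 had enough reads to be tested, and 0 of these were called (1 at an unadjusted p below 0.05).

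The promoters of Cxcl10 and Cxcl1 are shown as well, picked among the deepest falls because their windows hold letters of inflammatory response elements. They were chosen after their values were seen. Capitals mark the interferon-stimulated response element (GAAA, any 2 bases, GAAA) and the κB site (GGGA, any 2 bases, TTCC), either strand. In all promoters of the table these occur in 3.44% and 1.47%. The Cxcl10 window (chr5:92348840-92349139, minus strand) holds 1 of each, and the Cxcl1 window (chr5:90890995-90891294, plus strand) holds 2 overlapping κB matches. The interferon element's letters also lie in windows of genes that fell, such as Ifit1, and that rose, such as Glul. Those of the κB site also lie in windows of Gbp5, which fell, and Ms4a4a, which rose. B2m, which was not called, holds both. Here too a match describes the letters only, and its part in the falls was not tested.
Cxcl10: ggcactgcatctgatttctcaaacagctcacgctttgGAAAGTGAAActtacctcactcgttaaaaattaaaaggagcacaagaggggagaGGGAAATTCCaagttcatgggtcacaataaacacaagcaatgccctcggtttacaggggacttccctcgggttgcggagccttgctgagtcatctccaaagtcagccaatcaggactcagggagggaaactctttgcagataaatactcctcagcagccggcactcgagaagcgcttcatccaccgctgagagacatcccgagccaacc
Cxcl1: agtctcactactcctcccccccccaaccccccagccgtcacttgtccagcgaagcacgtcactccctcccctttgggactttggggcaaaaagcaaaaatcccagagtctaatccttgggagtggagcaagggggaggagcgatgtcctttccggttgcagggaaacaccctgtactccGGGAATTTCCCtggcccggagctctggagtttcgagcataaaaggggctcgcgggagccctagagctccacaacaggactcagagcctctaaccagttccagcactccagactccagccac

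Interferon-responsive genes fell in part. Of 41 tested interferon-gamma-responsive genes 12 fell and 0 rose (median -0.44), and of 40 type I interferon-stimulated effectors 8 fell and 1 rose (median -0.20). Irf1, the factor that drives many of them, was at 3183, 3462 and 2564 normalised counts in the water + PBS mice and 1300.0, 1353 and 1422 in the water + Dex mice (log2 fold change -1.18 ± 0.10 (SE), adjusted p = 2.2e-05). Irf8 was at 1721, 2054 and 1531 normalised counts in the water + PBS mice and 796, 699.8 and 606 in the water + Dex mice (log2 fold change -1.34 ± 0.14 (SE), adjusted p = 0.0001). Batf2, a partner of IRF factors, was at 384, 428 and 398 normalised counts in the water + PBS mice and 132, 141 and 123 in the water + Dex mice (log2 fold change -1.61 ± 0.13 (SE), adjusted p = 1.8e-05). In all 3 every Dex mouse was below every PBS mouse, with narrow groups. Apol7c, an apolipoprotein L gene, was at 339, 349 and 377 normalised counts in the water + PBS mice and 75.8, 83.2 and 84.3 in the water + Dex mice (log2 fold change -2.13 ± 0.13 (SE), adjusted p = 2.5e-06). The guanylate-binding protein Gbp5 was at 222, 268 and 129 normalised counts in the water + PBS mice and 113, 77.8 and 68.1 in the water + Dex mice (log2 fold change -1.26 ± 0.29 (SE), adjusted p = 0.018), where the call was lost without water + PBS mouse 1 or 2 or water + Dex mouse 2 or 3 (log2 fold change -1.21 to -1.03, adjusted p 0.053 to 0.079).

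Among the type I effectors, Ifit1bl1 was the most abundant fall, at 4606, 3960.2 and 2701 normalised counts in the water + PBS mice and 1859.7, 1945 and 1564 in the water + Dex mice (log2 fold change -1.07 ± 0.17 (SE), adjusted p = 0.0016). Cmpk2, a mitochondrial nucleotide kinase, was at 471, 653 and 486 normalised counts in the water + PBS mice and 229.7, 228 and 206 in the water + Dex mice (log2 fold change -1.28 ± 0.16 (SE), adjusted p = 0.00042). Ifit1 was at 801, 707 and 458 normalised counts in the water + PBS mice and 334, 376 and 350.1 in the water + Dex mice (log2 fold change -0.89 ± 0.21 (SE), adjusted p = 0.019), where the call was lost without water + PBS mouse 1 or 2 or water + Dex mouse 1 or 3 (log2 fold change -0.89 to -0.72, adjusted p 0.061 to 0.075). All 3 were lower in every Dex mouse than in any control. Usp18, which removes ISG15 and dampens the type I interferon receptor, went the other way, at 122, 158 and 69.4 normalised counts in the water + PBS mice and 607, 664 and 730.5 in the water + Dex mice, a 5.74-fold rise (log2 fold change 2.52 ± 0.31 (SE), adjusted p = 0.00029). Sequences shared with other genes touch several of these: 61.8% of the 31-base stretches of Ifit3, 55.3% of those of Ifit3b, 42.2% of Cxcl11, 38.1% of Apol7c and 19.3% of Ifit1bl1 also occur in transcripts of other genes, and reads mapping to more than 1 place had been left out.

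Of 32 STAT, IRF and SOCS factors 6 fell and 1 rose. Socs1 was at 136, 138 and 90.3 normalised counts in the water + PBS mice and 23.4, 21.6 and 28.1 in the water + Dex mice (log2 fold change -2.31 ± 0.34 (SE), adjusted p = 0.0012). Socs3 was at 963, 745 and 309 normalised counts in the water + PBS mice and 177, 138 and 169.6 in the water + Dex mice (log2 fold change -2.06 ± 0.39 (SE), adjusted p = 0.0053), and neither overlapped. Pim1, a STAT-induced kinase, fell by 1.16 ± 0.21 (SE, adjusted p = 0.0044), while its relative Pim3 rose by 0.93 ± 0.14 (SE, adjusted p = 0.0013), and the call was lost without water + PBS mouse 3 (log2 fold change 0.77, adjusted p 0.002). No antigen presentation gene was called by edgeR or DESeq2 among 22 of class I (median 0.00, 0 at an unadjusted p below 0.05) and 11 of class II (median -0.03, 1 at an unadjusted p below 0.05). B2m, the light chain of class I molecules, was at 21069.9, 22047 and 20665 normalised counts in the water + PBS mice and 24483, 28610.1 and 25131 in the water + Dex mice and H2-K1, a classical heavy chain, at 17786, 18623 and 16584 normalised counts in the water + PBS mice and 18568, 22949 and 20289 in the water + Dex mice.

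**Figure D4:**
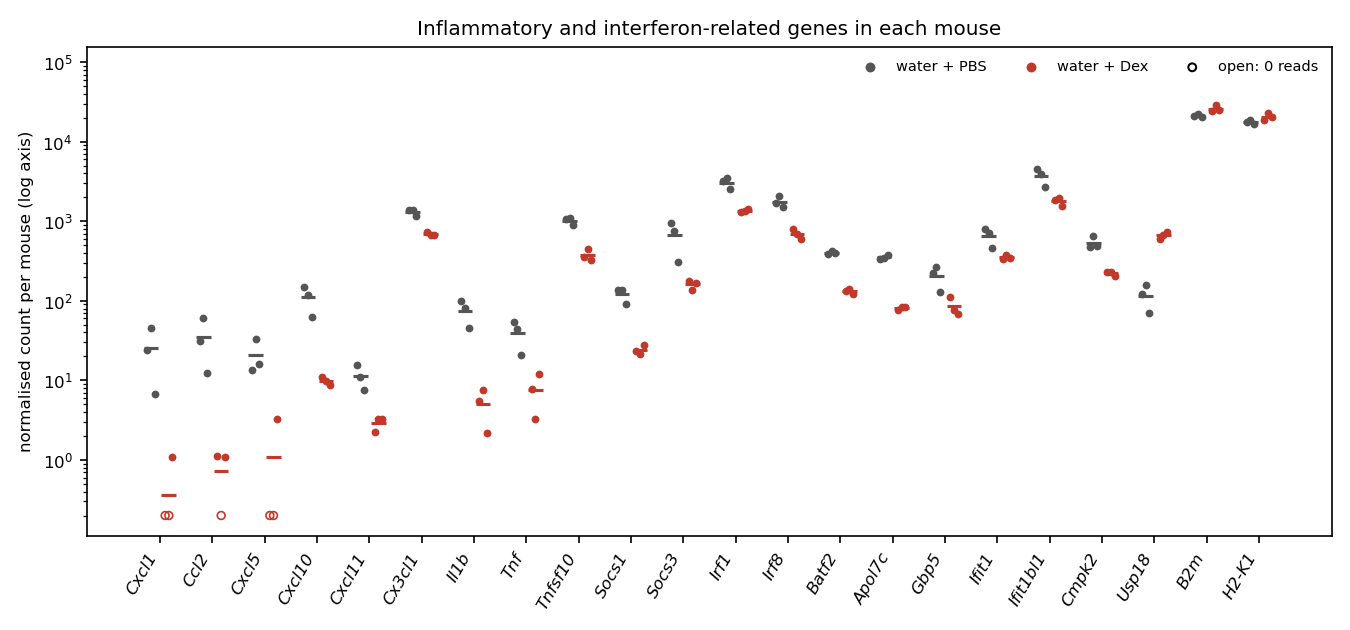
Normalised count in each mouse (log axis) for 22 inflammatory and interferon-related genes, grey for water + PBS and red for water + Dex, with a line at each group's mean and open circles for libraries with 0 reads, drawn at the foot of the axis. Every gene from Cxcl1 to Cmpk2 lies lower with Dex, Usp18 lies higher (69.4 to 158 against 607 to 730), and B2m and H2-K1 were not called.

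Some of the deep falls belonged to genes with few reads or much variation among mice. Igkv8-27, an immunoglobulin light chain segment, was at 3563, 4124 and 798 normalised counts in the water + PBS mice and 496, 509.8 and 249.6 in the water + Dex mice, and the call was lost without water + PBS mouse 1 or 2 or water + Dex mouse 1 or 2 or 3 (log2 fold change -2.94 to -2.38, adjusted p 0.11 to 0.17). Igkv6-20 was at 207, 65.2 and 131 normalised counts in the water + PBS mice and 15.6, 23.8 and 30.3 in the water + Dex mice, and the call was lost without water + PBS mouse 1 or 3 or water + Dex mouse 1 or 2 or 3 (log2 fold change -2.77 to -2.08, adjusted p 0.077 to 0.13). Of 161 tested immunoglobulin V segments 1 was called up and 4 down, where over all tested genes 2.79% were called up and 1.64% down. The median log2 fold change of the 161 segments was 0.09. B cell markers varied among the mice beside them: 0 of 10 were called by edgeR or DESeq2 (0 at an unadjusted p below 0.05), all had negative log2 fold changes (median -1.56), and their summed level was 394, 8205 and 2299 normalised counts in the PBS mice and 3004, 422 and 205 in the Dex mice, so the groups overlap. Their part in the 4 immunoglobulin segments called down was not tested. Defa31, a Paneth cell defensin whose every 31-base stretch also occurs in another gene's transcript, was at 96.3, 47.2 and 98.8 normalised counts in the water + PBS mice and 4.46, 5.4 and 11.9 in the water + Dex mice, and the call was lost without water + PBS mouse 1 or 3 or water + Dex mouse 1 or 2 or 3 (log2 fold change -4.01 to -3.21, adjusted p 0.069 to 0.11). None of the 10 Paneth cell markers was called (median 0.11, 0 at an unadjusted p below 0.05). Edn2, Igsf9 and Ky, with log2 fold changes of -2.37, -2.58 and -2.77, were steadier, and Igsf9 was at 1489, 1518 and 1203 normalised counts in the water + PBS mice and 232, 276 and 195 in the water + Dex mice (log2 fold change -2.58 ± 0.22 (SE), adjusted p = 1.8e-05).

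The same contrast in the zinc-drinking mice, which shared no animal with the water groups, gave 543 genes up (3.41%) and 383 down (2.4%). Of the 444 genes that rose in water-drinking mice 442 had a positive log2 fold change there and 353 (79.5%) were called up; of the 261 that fell 257 had a negative one and 183 (70.1%) were called down. None was called the opposite way. Over all tested genes the water and zinc contrasts had the same sign in 71.4%. The median log2 fold change in the zinc-drinking mice was 1.28 for the 444 and -1.06 for the 261. Fkbp5 had a log2 fold change of 3.39 there, Ddit4 4.30, Pck1 4.62, Nr3c1 -1.32, Irf1 -1.003 and Cxcl10 -2.48, against 3.34, 4.19, 5.34, -0.96, -1.18 and -3.47 in the water-drinking mice. The 6 called genes with an opposite sign were Gm14388 and 4732465J04Rik among the rises and Defa31, Igkv6-20, Igkv9-124 and Duoxa1 among the falls, listed after their values were seen. The difference between the water and zinc contrasts was tested gene by gene: edgeR called 0 of 15938 genes, 794 had an unadjusted p below 0.05, and the lowest adjusted p was 0.95, while DESeq2 called 6, among them Ifit1bl1 and Igkv6-20. Both contrasts were fitted together and share the estimate of spread.

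**Figure D5:**
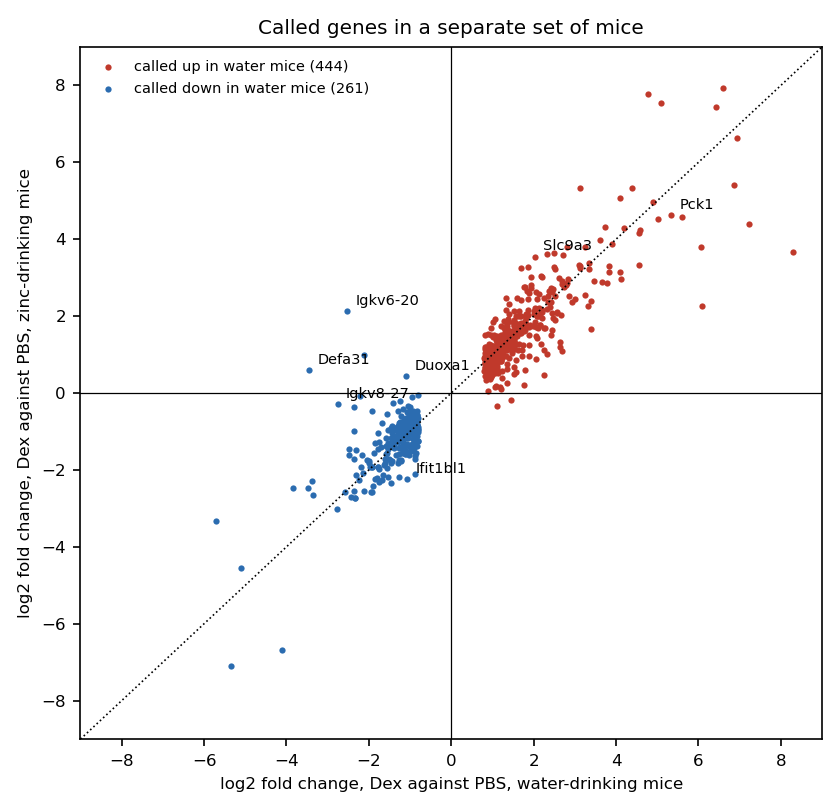
Log2 fold change, Dex against PBS, for the 705 genes called in water-drinking mice (horizontal) and the same genes in zinc-drinking mice (vertical), red for those called up and blue for those called down, with a dotted line where both are equal. Nearly all points lie in the quadrants of equal sign (442 of 444 and 257 of 261), and Igkv6-20, Defa31 and Duoxa1 are among the exceptions. Over all tested genes the sign is the same in 71.4%.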

How the data were processed

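Total RNA from whole ileum was sequenced per mouse in 12 libraries (4 groups of 3). According to the study's methods and the submitters' processing notes, the authors prepared stranded single-end libraries, aligned the reads to mm10 with HISAT (HISAT2 2.0.4 in the notes) after trimming with Trimmomatic, left out reads mapping to several places, and deposited raw counts per gene made with featureCounts, which they tested with DESeq2. The annotation release and the strand setting of the counting are not given in the sources used here. Reads from genes that overlap on opposite strands may therefore not be separable, and transcripts that share sequence with other genes lose reads.

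Groups were taken from the labels. Counts were refitted in R 4.3.3 with edgeR 4.0.16: filterByExpr (minimum count 10), TMM factors, and a quasi-likelihood model with a mean per group over all 12 libraries, which left 15938 of 54838 genes. A gene was called at a Benjamini-Hochberg adjusted p below 0.05 and a log2 fold change beyond 0.8. The SE is the log2 fold change divided by the square root of F. The fit was tested on simulated counts, and DESeq2 1.42.0, other scalings and filters, a replicate block and leaving out each mouse were the alternatives. The genes and lists were chosen with earlier results of these data known. Named were the 15 largest rises and 15 largest falls with a mean CPM of at least 1 and no overlap, the 10 most abundant calls each way, up to 8 called genes per list (or its most abundant members where fewer than 2 were called), all classical targets and Nr3c1. Genes outside this rule are marked as chosen after their values were seen. Symbols and positions came from GENCODE M21 (54809 of 54838 identifiers matched). Promoters are from RefSeq on GRCm38.p6, where 190 of the 252 genes eligible for naming had one. Gene lists are described by counts and medians, without a test of the list. Some genes stand in several lists, such as Angptl4, Cxcl10, Irf1 and Socs1, so the counts of the lists are not separate results. Some genes that the rule names are not reported here.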

Additional observations from a re-analysis of the deposited data

How the results depend on the processing

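The counts of 444 rises and 261 falls moved most with the size a change had to reach. With no cut-off on the log2 fold change they were 863 and 719, with 664 and 532 also called in the zinc-drinking mice (353 and 183 as reported). A cut-off of 1 left 108 of the shared falls, and testing against 0.8 itself (glmTreat) left 152 rises and 42 falls, 135 and 33 of them shared. DESeq2 called 460 rises and 268 falls, and 6 genes for the difference between the water and zinc contrasts where edgeR called 0. Other scalings, no filter on low counts and a fit of only the 6 libraries gave 435 to 481 rises and 240 to 279 falls. Leaving out each mouse gave 355 to 426 rises and 193 to 261 falls, with 296 to 345 and 151 to 174 shared with the zinc-drinking mice and 0 genes for the difference.

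Of the 160 called genes named in the text, 120 were called in every fit at the same cut-offs, the replicate block below included, and none reversed. Of genes that were not called, Mki67 had log2 fold changes of -0.12 to 0.018 when each mouse was left out, Csf1r of -0.22 to 0.023 and Anxa1 of -0.016 to 0.10. Of 53 list medians, 16 changed sign somewhere.

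With the replicate number as a replicate block, 434 genes rose and 255 fell, 352 and 180 of them shared, and 7 of the called genes named here were not called (Igkv8-27, Igkv6-20, Tnf, Pik3ip1, Slc2a5, Duoxa1 and Duoxa2). Same-numbered mice did not deviate together (median correlation of deviations -0.06 over 18 pairs), so the numbers were not treated as pairing. The 10760132 to 11798057 reads a library limit genes with few reads, and 3 mice a group limit small changes.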

Other observations

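The list of 8 endothelial markers held 1 fall (Kdr) and 1 rise, Lyve1, a lymphatic vessel gene, at 270.4, 251 and 248 normalised counts in the water + PBS mice and 704, 717 and 815 in the water + Dex mice (log2 fold change 1.54 ± 0.08 (SE), adjusted p = 8.3e-07). Its median log2 fold change was -0.02, and its summed level was 1725 to 2097 normalised counts with PBS and 2075 to 2187 with Dex. Some single genes known from blood vessels were called down. They were picked after their values were seen and because they were called, so they say nothing of endothelial genes as a group. Aplnr, the apelin receptor, was at 77.8, 91.3 and 67.5 normalised counts in the water + PBS mice and 15.6, 20.5 and 7.56 in the water + Dex mice (log2 fold change -2.43 ± 0.29 (SE), adjusted p = 0.00029). Dll4, the Notch ligand of sprouting vessels, was at 291, 340.1 and 274 normalised counts in the water + PBS mice and 153, 111 and 137 in the water + Dex mice (log2 fold change -1.17 ± 0.13 (SE), adjusted p = 0.00015). Kdr, the main receptor for VEGF, was at 327, 346 and 349.7 normalised counts in the water + PBS mice and 147, 187 and 191 in the water + Dex mice (log2 fold change -0.96 ± 0.12 (SE), adjusted p = 0.00037). Ackr1, a chemokine-binding protein of venules, was at 40.9, 75.3 and 39 normalised counts in the water + PBS mice and 16.7, 11.9 and 14 in the water + Dex mice (log2 fold change -1.85 ± 0.29 (SE), adjusted p = 0.0019), with 23% of its 31-base stretches also in other transcripts. Selp, the leukocyte adhesion receptor P-selectin, was at 24.3, 56.2 and 16.2 normalised counts in the water + PBS mice and 10.03, 3.24 and 5.4 in the water + Dex mice (log2 fold change -2.35 ± 0.55 (SE), adjusted p = 0.019), where the call was lost without water + PBS mouse 2 or water + Dex mouse 2 or 3 (log2 fold change -2.27 to -1.69, adjusted p 0.07 to 0.082). None of these overlapped between the groups, which the rule for the largest falls required of Aplnr and Selp. Others called down were Esm1, Hey2, Sox7, Egfl7, Bcl6b, Myct1, Pcdh12, Clec14a and Cldn5. For Sox7 the call was lost without water + PBS mouse 2 or water + Dex mouse 2 or 3 (log2 fold change -1.43 to -1.10, adjusted p 0.052 to 0.068), and for Hey2 the call was lost without water + PBS mouse 2 or 3 or water + Dex mouse 1 or 2 or 3 (log2 fold change -1.33 to -1.13, adjusted p 0.057 to 0.1). Edn1, the vasoconstrictor endothelin, rose, at 17.5, 21.1 and 22.8 normalised counts in the water + PBS mice and 75.8, 92.9 and 129.7 in the water + Dex mice (log2 fold change 2.27 ± 0.25 (SE), adjusted p = 0.00015), while Edn2 fell.

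The alcohol dehydrogenase genes, a cluster on chromosome 3 that oxidises ethanol and retinol, were also picked after their values were seen. Of 5 tested, 4 were called up, where over all tested genes 2.79% were, and Adh6b and Adh4 had few reads. Adh6a was at 240.3, 218 and 238 normalised counts in the water + PBS mice and 3512, 3563 and 4817 in the water + Dex mice (log2 fold change 4.09 ± 0.27 (SE), adjusted p = 3.7e-06). Adh1 was at 189, 202 and 186 normalised counts in the water + PBS mice and 743, 796 and 843 in the water + Dex mice (log2 fold change 2.05 ± 0.16 (SE), adjusted p = 1.1e-05). Neither overlapped between the groups. Adh6b had no read in any PBS mouse and was at least 4.97-fold higher with Dex (adjusted p = 0.00084), and Adh4 was at 1.95, 2.01 and 3.8 normalised counts in the water + PBS mice and 24.5, 14 and 27 in the water + Dex mice, where the call was lost without water + PBS mouse 1 or 2 or water + Dex mouse 3 (log2 fold change 2.82 to 2.87, adjusted p 0.055 to 0.058). The growth arrest genes Gadd45b and Gadd45g rose (log2 fold change 2.06 ± 0.28 (SE), adjusted p = 0.00069, and log2 fold change 2.17 ± 0.30 (SE), adjusted p = 0.00082), while Gadd45a was not called (log2 fold change 0.37). Prdx6, a peroxiredoxin, was at 2409.6, 1972 and 1948 normalised counts in the water + PBS mice and 8949, 9536 and 9503 in the water + Dex mice (log2 fold change 2.14 ± 0.13 (SE), adjusted p = 2.1e-06).

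Of 14 tested chemokine receptors, expressed by lymphoid and myeloid cells, 5 were called down and 0 up (over all tested genes 1.64% were called down), among them Ccr2, the receptor for Ccl2, at 95.3, 140.5 and 103 normalised counts in the water + PBS mice and 43.5, 55.1 and 44.3 in the water + Dex mice (log2 fold change -1.24 ± 0.22 (SE), adjusted p = 0.0039), and Cxcr6, at 73, 87.3 and 67.5 normalised counts in the water + PBS mice and 36.8, 38.9 and 37.8 in the water + Dex mice (log2 fold change -1.002 ± 0.18 (SE), adjusted p = 0.0035). Of 12 macrophage and dendritic cell markers 1 rose and 0 fell (median 0.05). Ms4a4a, a macrophage surface gene, rose, at 73.9, 74.2 and 69.4 normalised counts in the water + PBS mice and 147, 202 and 173 in the water + Dex mice (log2 fold change 1.26 ± 0.15 (SE), adjusted p = 0.00021). Csf1r, a general macrophage marker, was at 776, 931 and 767 normalised counts in the water + PBS mice and 724, 920.2 and 709 in the water + Dex mice (-0.07, adjusted p = 0.77). Its groups overlapped, whereas those of Ccr2, Cxcr6 and Ms4a4a did not. These genes, too, were chosen after their values were seen.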
